A study of Homo sapiens with 9 samples.

Results

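MicroRNAs act through a protein machinery with a fixed order of steps. The nuclear ribonuclease DROSHA cuts the primary transcript, exportin-5 (XPO5) carries the resulting hairpin to the cytoplasm, and DICER1 cuts it to a duplex, from which an Argonaute protein (AGO1 to AGO4) keeps a single strand as a guide. The Argonaute then binds a protein of the TNRC6 family, also called GW182 proteins, which recruits the deadenylases that shorten the poly(A) tail of the bound mRNA. A transfected mimic enters this pathway as a ready-made duplex, so it needs the Argonaute and TNRC6 steps but not the nuclear ones.

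The transcripts of this machinery were examined in ZR-75-1, an established human breast cancer line that expresses the estrogen receptor. Of the 10 genes chosen (AGO1, AGO2, AGO3, AGO4, DICER1, DROSHA, XPO5, TNRC6A, TNRC6B and TNRC6C), 4 have a probeset that the platform's gene table names, among 14884 genes with such a probeset: XPO5, TNRC6A, TNRC6B and TNRC6C, with 1 probeset each. They lie on chromosomes 6 (XPO5), 16 (TNRC6A), 22 (TNRC6B) and 17 (TNRC6C). The Argonautes, DICER1 and DROSHA were not analysed here, because no probeset carries their names in that table. The results below therefore cover the export receptor and the whole TNRC6 family.

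Cells were given Lipofectamine RNAiMAX with 50 nM miR-150-5p mimic (3 arrays), the same lipid with 50 nM of a non-specific negative control RNA (3 arrays), or the lipid with no RNA, called mock (3 arrays). The medium was replaced at 24 h and RNA was taken at 48 h. All 9 arrays come from this 1 cell line, the labels do not say whether the triplicates were separate experiments, and the p-values measure a spread that may be partly technical. Values are log2 intensities of Affymetrix Human Gene 2.0 ST arrays as the authors deposited them, so a difference of 1 is a doubling, and array medians lay between 4.22 and 4.27. Of the luminal breast markers 9 of 10 were named, from KRT8 (between 6.88 and 6.99) to KRT18 (between 11.99 and 12.14), all above 5.44, the median of the tested genes, on every array. The 7 named markers of other cell types lay below that value on every array. The brightest were VIM of fibroblasts, between 4.59 and 5.40, and KRT14 of basal epithelium, between 4.29 and 4.82, both above the array medians on every array. The others were VWF and PECAM1 of endothelium at no more than 3.61 and 3.58, LYZ of leukocytes at no more than 3.31, KRT5 of basal epithelium at no more than 2.67 and DCN of fibroblasts at no more than 2.63. The array gives no detection call, and each probeset has its own response, so the order of different genes by level is only rough.

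The promoters of TNRC6A and TNRC6B are shown first, because these family members differed most in the mimic arrays. Each line gives the 250 bases before the annotated start of the gene on the plus strand, 5′ to 3′, from RefSeq on GRCh38.p14, at chr16:24729401-24729650 for TNRC6A and chr22:40044584-40044833 for TNRC6B. Capitals mark the CCAAT box (CCAAT, or ATTGG where it lies on the opposite strand) and the half-site of the estrogen response element (GGTCA, or TGACC on the opposite strand).
TNRC6A: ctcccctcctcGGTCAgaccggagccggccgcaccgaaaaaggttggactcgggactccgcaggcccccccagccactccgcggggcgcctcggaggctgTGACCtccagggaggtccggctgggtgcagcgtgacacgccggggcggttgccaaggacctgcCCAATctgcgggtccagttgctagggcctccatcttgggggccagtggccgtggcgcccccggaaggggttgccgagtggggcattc
TNRC6B: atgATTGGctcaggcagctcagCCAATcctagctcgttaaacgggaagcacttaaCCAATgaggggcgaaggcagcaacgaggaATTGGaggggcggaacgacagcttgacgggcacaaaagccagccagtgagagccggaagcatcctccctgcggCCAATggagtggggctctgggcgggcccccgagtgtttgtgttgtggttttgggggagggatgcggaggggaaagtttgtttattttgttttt

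The TNRC6A promoter held 1 CCAAT box and 2 half-sites, at G+C of 71.6% with 21 CpG dinucleotides. The TNRC6B promoter held 5 CCAAT boxes and 0 half-sites, at G+C of 56.4% with 12 CpG dinucleotides. Of 35116 annotated promoters of the same length, 32.0% had at least 1 CCAAT box and 32.6% at least 1 half-site on either strand, so the presence of either motif is not rare. The shares with 5 CCAAT boxes or with 2 half-sites were not computed. A whole estrogen response element, which is a half-site, 3 unspecified bases and the half-site on the opposite strand, was found in 0.0399% of promoters, and a TATA box (TATAAA) in 10.7%. Neither was found in these windows. The GC box (GGGCGG), present in 42.6% of promoters, occurred 1 time in TNRC6A and 2 times in TNRC6B, and no marked motif overlapped another. TNRC6C has 4 annotated starts in the table, none of which the arrays single out, so none is shown. These matches describe the letters only, and the motifs were picked after the expression values were known.

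TNRC6A, the scaffold after which the GW182 proteins are named, was higher in the mimic arrays than in either control. Its log2 intensity was 8.07, 8.03 and 8.03 in the mimic arrays, 7.72, 7.63 and 7.72 in the negative control arrays, and 7.54, 7.62 and 7.66 in the mock arrays. Every mimic array lay above every array of both controls, while the negative control and mock arrays overlapped. Over all genes the mimic arrays lay wholly above the negative control arrays for 8.42% and wholly above the mock arrays for 7.21%. The mimic arrays also agreed most closely among themselves, with a mean of 8.04 ± 0.02 (SD, n = 3), against 7.69 ± 0.05 in the negative control and 7.61 ± 0.06 in mock.

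Against mock, TNRC6A rose by 0.44 ± 0.06 (SE) on the log2 scale, or 1.35-fold, with a 95% interval of the log2 difference from 0.29 to 0.58, at a limma adjusted p = 0.0359. It was the 1 member of 4 that passed an adjusted p of 0.05 in this comparison, in which 0.302% of all 14884 genes passed and 0.168% passed with a higher level. Against the negative control RNA the difference was 0.35 ± 0.06, or 1.28-fold, with an interval from 0.21 to 0.50, at a limma adjusted p = 0.0509. No member passed there, where 0.551% of all genes did. RNA was taken from whole cultures, so more transcript per cell and more cells with the transcript cannot be told apart. The 2 comparisons share the mimic arrays, so their values are not independent.

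The call of TNRC6A against mock was close to the threshold. Over 18 alternative settings the limma adjusted p lay between 0.0104 and 0.179, with 5 settings passing. Many of these settings change only the error or the adjustment and cannot move a difference of group means. Among those that can, the log2 difference was 0.40 after quantile normalization and 0.43 with arrays centred on their medians. Without 1 mock or mimic array it lay between 0.40 and 0.46. Leaving out any 1 of the 9 arrays, controls and mimic alike, ended the call, with log2 differences from 0.40 to 0.46 and 0 members passing in each of these fits. Against the negative control the difference passed in 3 of 18 settings, with values from 0.32 to 0.37. These 3 were the fit to genes above the median intensity, the fit with an intensity trend in the spread and the fit without mock replicate 3.

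**Figure D1:**
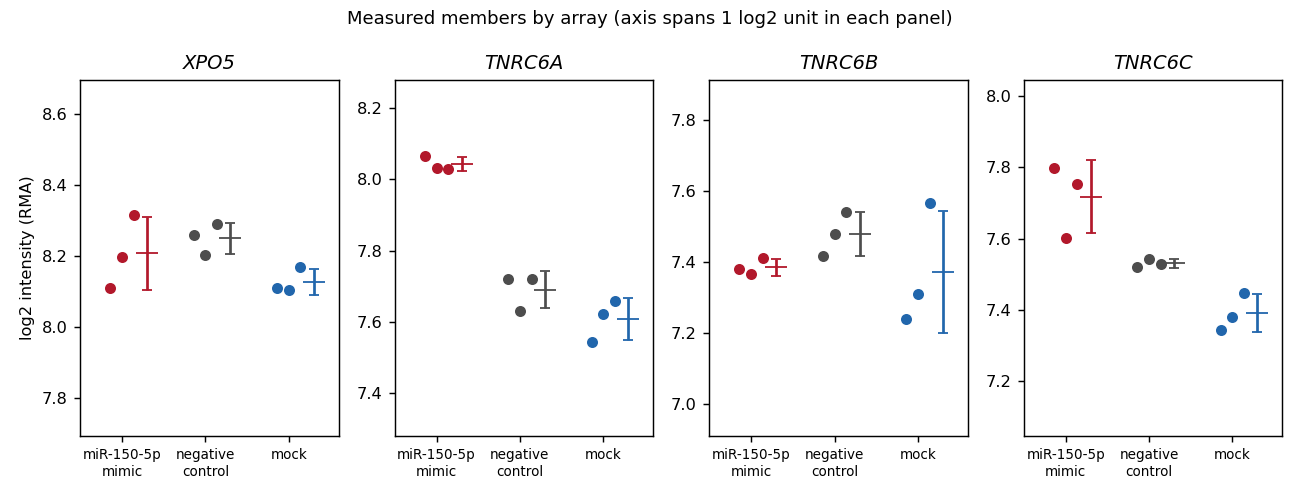
Log2 intensity of XPO5, TNRC6A, TNRC6B and TNRC6C in the 3 mimic, 3 negative control and 3 mock arrays. Each point is 1 array, in replicate order 1 to 3, and the bar beside the points is the mean with the SD. Every panel spans 1 log2 unit. The 3 mimic points of TNRC6A sit between 8.03 and 8.07, above all 6 control points, and those of TNRC6C also lie above both controls.

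TNRC6C, the third scaffold of the family, was arranged in steps. Its log2 intensity was 7.80, 7.60 and 7.75 in the mimic arrays, 7.52, 7.54 and 7.53 in the negative control arrays, and 7.34, 7.38 and 7.45 in the mock arrays. The mimic arrays all lay above the negative control arrays, and these all lay above the mock arrays. That order, with no overlap at either step, was found for 43 of 14884 genes or 0.289%, and it was looked for after the values of TNRC6C had been seen. The group means were 7.72 ± 0.10 (SD, n = 3) for mimic, 7.53 ± 0.01 for negative control and 7.39 ± 0.05 for mock.

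None of the differences of TNRC6C passed. Mimic exceeded mock by 0.33 ± 0.07 (SE), or 1.26-fold, with an interval from 0.17 to 0.49, at a limma adjusted p = 0.143. The difference from the negative control was 0.19 ± 0.07 (adjusted p = 0.330), and the negative control exceeded mock by 0.14 ± 0.07 (adjusted p = 0.976). The difference from mock passed in none of the 18 alternatives, with limma adjusted p from 0.0501 to 0.375. It lay between 0.29 and 0.39, although many of these settings change only the error or the adjustment and cannot turn its sign.

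TNRC6B, the remaining scaffold, stood in the mimic arrays within its range in mock. Its log2 intensity was 7.38, 7.37 and 7.41 in the mimic arrays, 7.42, 7.48 and 7.54 in the negative control arrays, and 7.24, 7.31 and 7.57 in the mock arrays. The mimic arrays lay just below the negative control arrays without overlap, so that 3 of the 4 members were separated from the negative control, which held for 16.4% of all genes in either direction. They lay inside the range of the mock arrays, of which replicate 3 was the highest of all 9 arrays. Mimic minus mock was 0.01 ± 0.09 (SE) with a 95% interval from -0.19 to 0.21 on the log2 scale (limma adjusted p = 0.970). Mimic minus negative control was -0.09 ± 0.09 with an interval from -0.30 to 0.11 (adjusted p = 0.708). The sign against mock was not stable: it was negative after quantile normalization and without mock replicate 1, mock replicate 2 or mimic replicate 3.

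XPO5, the export receptor for microRNA precursors, showed no separation of the mimic from the controls. Its log2 intensity was 8.11, 8.20 and 8.31 in the mimic arrays, 8.26, 8.20 and 8.29 in the negative control arrays, and 8.11, 8.10 and 8.17 in the mock arrays. The mimic arrays spread over the values of both controls, and the negative control arrays lay above the mock arrays without overlap. Mimic minus negative control was -0.04 ± 0.07 (SE) with an interval from -0.20 to 0.12 (limma adjusted p = 0.853), and mimic minus mock was 0.08 ± 0.07 with an interval from -0.08 to 0.24 (adjusted p = 0.726). The sign of the first of these turned without mimic replicate 1, when the value was 0.0064.

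**Figure D2:**
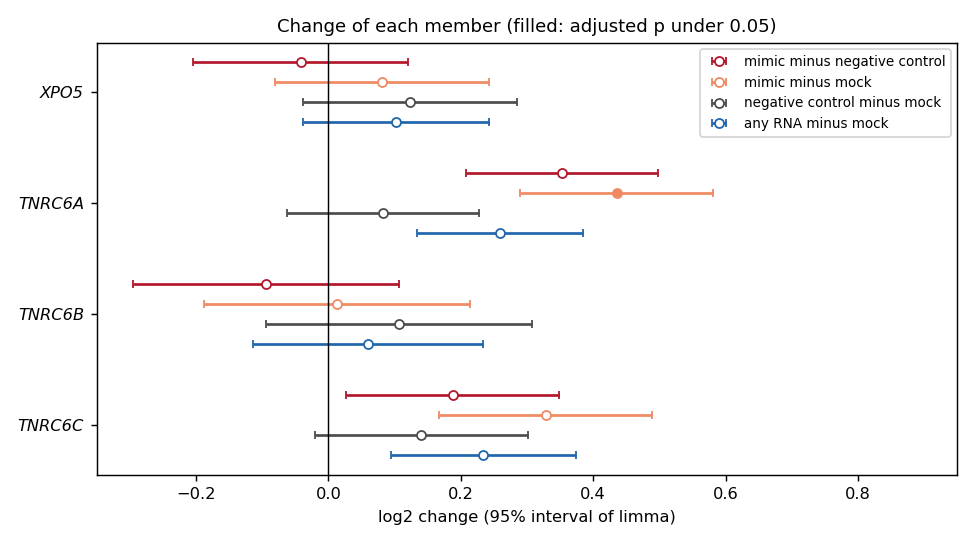
Log2 change of each measured member in the 4 comparisons, with limma's 95% interval. A filled point passed an adjusted p of 0.05. The single filled point is TNRC6A against mock at 0.44, and the intervals of TNRC6B and XPO5 include 0 in every comparison.

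The step from lipid alone to lipid with any RNA was examined in 2 ways. In the direct comparison of negative control RNA with mock, the differences of the 4 members were all positive: 0.14 ± 0.07 (SE) for TNRC6C, 0.12 ± 0.07 for XPO5, 0.11 ± 0.09 for TNRC6B and 0.08 ± 0.06 for TNRC6A. Over all genes 52.8% had a positive difference. No gene passed in limma (0% of 14884, lowest adjusted p = 0.976), and 4.18% of genes but 0 of the 4 members had an unadjusted p under 0.05. The arrays of the 2 groups did not overlap for TNRC6C and XPO5, which held for 8.10% of all genes and, with the negative control higher, for 4.77%.

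The mean of both RNA groups was then set against mock, 6 arrays against 3. TNRC6A was higher by 0.26 ± 0.06 (SE), TNRC6C by 0.23 ± 0.06, XPO5 by 0.10 ± 0.06 and TNRC6B by 0.06 ± 0.08. Again no gene passed in limma (0%, lowest adjusted p = 0.453), and the adjusted p was 0.627 for TNRC6A and 0.683 for TNRC6C. Both had an unadjusted p under 0.05, as did 5.76% of all genes. For TNRC6C the 6 arrays with RNA all lay above the 3 mock arrays, which held in that direction for 1.37% of genes. For TNRC6A the ranges overlapped, since negative control replicate 2 (7.63) lay below mock replicate 3 (7.66). For TNRC6A, mimic stood 0.44 above mock and the negative control RNA 0.08 above it.

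Differences between paralogs were tested on the within-array difference of 2 genes, which cancels any shift of a whole array. For the step from mock to any RNA, the change of TNRC6A minus that of TNRC6B was 0.20 on the log2 scale, that of TNRC6A minus TNRC6C was 0.02, and that of TNRC6B minus TNRC6C was -0.17. In two-sided exact permutation tests over the 84 arrangements of 9 arrays, adjusted over the 3 pairs, p was 0.446, 0.679 and 0.446, so the paralogs were not shown to differ in that step.

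A second set of these tests, added after the values had been seen, compared the 3 mimic arrays with the 6 control arrays. TNRC6A minus TNRC6B was 0.66 ± 0.03 (SD, n = 3) in the mimic arrays and 0.22 ± 0.10 (n = 6) in the control arrays, a difference of 0.43 and a permutation p of 0.0119. TNRC6A minus TNRC6C was 0.32 ± 0.09 in mimic and 0.19 ± 0.05 in control arrays, a difference of 0.14. TNRC6B minus TNRC6C was -0.33 ± 0.09 in mimic and -0.03 ± 0.09 in control arrays, a difference of -0.30. In each of the 3 pairs the mimic arrays did not overlap the control arrays, which gives the smallest p that 84 arrangements allow in the exact permutation test, 0.0119, also after adjustment over the 3 pairs. The 3 pairs are built from the same 3 genes and are not independent. Since the values of these genes were already known, the p-values do not measure how often chance gives such a separation. The share of other gene pairs separated in this way was not computed. Without mimic replicate 2 the differences were 0.43, 0.08 and -0.35, and the adjusted p of the exact test was 0.0536, 0.143 and 0.0536. Fewer arrays allow fewer arrangements and a larger smallest p, so these p-values cannot be set directly beside 0.0119.

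The rest of the pathway was followed in 5 lists, with 35 of 67 listed genes named. None of the 35 passed in any of the 4 comparisons. Against mock, 26 of them had a positive log2 difference, with a median of 0.07, where 53.9% of all genes were positive and the median was 0.01. The arrays of mimic and mock did not overlap for 5 of the 35, against 12.7% of all genes, and 4 had an unadjusted p under 0.05 in limma, against 10.7%. These last 2 shares of the 35 are near those of all genes. Against the negative control 22 of the 35 were positive, with a median of 0.04, where 53.4% of all genes were.

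Nuclear processing and export, apart from XPO5, were represented by 8 of 11 listed genes, with a median of 0.12 against mock. NUP153, a nuclear pore protein, differed from mock by 0.16 ± 0.07 (SE, limma adjusted p = 0.458). Its log2 intensity was 9.64, 9.57 and 9.74 in the mimic arrays and 9.44, 9.45 and 9.57 in the mock arrays, which met at mimic replicate 2 and mock replicate 3. DGCR8, the RNA-binding partner of DROSHA, differed by 0.16 ± 0.08 (adjusted p = 0.512). It stood at 6.73, 6.90 and 6.88 in the mimic arrays and 6.57, 6.73 and 6.73 in the mock arrays, so that mimic replicate 1 lay within the mock range. Among the Dicer and loading partners, 3 of 10 were named, and TARBP2, the double-stranded RNA-binding partner of DICER1, differed by 0.08 ± 0.09 and PTGES3, the HSP90 cochaperone p23, by -0.11 ± 0.10.

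No gene of the effector steps downstream of the TNRC6 scaffolds passed. Of the deadenylation genes 4 of 16 were named, with a median of 0.02 against mock. PAN3, a subunit of the PAN2-PAN3 deadenylase, differed by 0.08 ± 0.09 (SE) and CNOT11, a subunit of the CCR4-NOT deadenylase, by -0.02 ± 0.09. Of the decapping and decay genes 10 of 12 were named, with a median of 0.09. EIF4ENIF1, which encodes the eIF4E-binding protein 4E-T, differed by 0.10 ± 0.06 (limma adjusted p = 0.617), and XRN1, the cytoplasmic exonuclease that degrades decapped mRNA, by 0.17 ± 0.12 (adjusted p = 0.652).

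DCP2, the enzyme that removes the mRNA cap, was picked out after its values were seen, for its size in the step from lipid alone to RNA. Its log2 intensity was 8.69, 8.54 and 8.55 in the mimic arrays, 8.82, 8.74 and 8.95 in the negative control arrays, and 8.18, 8.21 and 8.89 in the mock arrays. Mock replicate 3 lay above all mimic arrays and within the range of the negative control arrays, away from the other mock arrays. Negative control minus mock was 0.41 ± 0.17 (SE) with a 95% interval from 0.03 to 0.78 (limma adjusted p = 0.976), and any RNA minus mock was 0.29 ± 0.14 (adjusted p = 0.860). Mimic minus mock was 0.16 ± 0.17 (adjusted p = 0.765).

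Among 10 of 18 other regulators of Argonaute or of microRNAs, the lowest p against mock belonged to LIMD1, a LIM-domain protein that binds Argonaute and TNRC6 proteins, and ZSWIM8, a ubiquitin ligase adaptor of target-directed microRNA decay. LIMD1 stood at 6.87, 6.87 and 6.98 in the mimic arrays, at 7.03 in all 3 negative control arrays, and at 7.17, 7.09 and 7.03 in the mock arrays. The equal values, shared with mock replicate 3, are a tie and do not show agreement between arrays. The mimic arrays were the lowest of the 9, and the difference of LIMD1 from mock was -0.19 ± 0.07 (SE, limma adjusted p = 0.359). Mimic arrays did not overlap the negative control arrays for 16.4% of all genes and the mock arrays for 12.7%, in either direction. ZSWIM8 stood at 6.65, 6.59 and 6.69 in the mimic arrays, at 6.47, 6.48 and 6.49 in the negative control arrays, and at 6.39, 6.59 and 6.19 in the mock arrays. Its difference from mock was 0.25 ± 0.10 (adjusted p = 0.405), and mimic and mock overlapped at mock replicate 2.

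**Figure D3:**
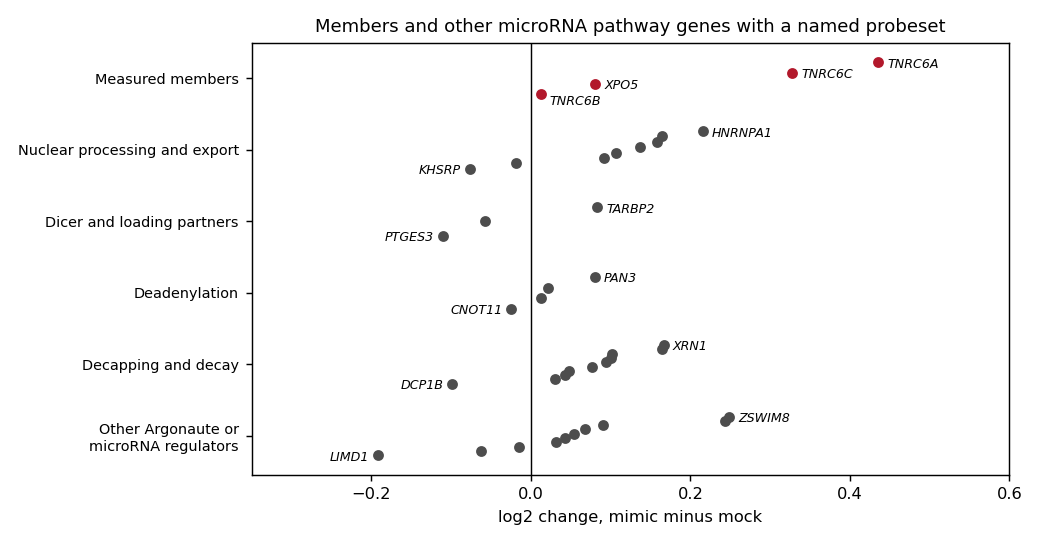
Log2 change of mimic minus mock for the 4 measured members (red) and for 35 other microRNA pathway genes in 5 lists (grey), with the lowest and highest gene of each list named. Each point is 1 gene. TNRC6A at 0.44 and TNRC6C at 0.33 lie to the right of every gene of the lists, of which ZSWIM8 is the highest at 0.25.

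Sensors of foreign RNA and interferon-induced genes were read beside these values, since the groups differ in the RNA they received. Of 11 listed genes 8 were named and none passed in any comparison. Against mock their median difference was -0.08, with IFIT1, an interferon-induced RNA-binding protein, at -0.52 ± 0.27 (SE) and RIGI, a cytoplasmic RNA sensor, at -0.18 ± 0.14. In the mock arrays IFIT1 stood at 2.43, 2.47 and 3.64, so its difference rests largely on mock replicate 3. IFIT1 was dim, as were IFIT2 and IFIT3, with group means of at most 2.92 and 2.49, below the 5.44 of the median gene. Against the negative control the median was -0.02, and the arrays did not overlap for 3 of the 8, against 16.4% of all genes. There TLR3, an endosomal sensor of double-stranded RNA, differed by -0.53 ± 0.18 (limma adjusted p = 0.270) and IFIH1, a cytoplasmic one, by -0.22 ± 0.08 (adjusted p = 0.302), both named after their values were seen. Mimic minus mock was smaller, at -0.22 ± 0.18 for TLR3 and -0.06 ± 0.08 for IFIH1. Negative control minus mock was 0.31 ± 0.18 for TLR3 and 0.15 ± 0.08 for IFIH1. TLR3 was also below the median gene, with group means between 4.06 and 4.59. The mean log2 intensity of the 8 genes lay between 4.92 and 5.04 in the mimic arrays, between 5.07 and 5.11 in the negative control arrays and between 5.03 and 5.22 in the mock arrays.

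Of the 9 named luminal markers, 2 rose in the mimic arrays. PGR, the progesterone receptor, rose by 0.58 ± 0.08 (SE, limma adjusted p = 0.0200) against the negative control and by 0.64 ± 0.08 (adjusted p = 0.0224) against mock. ESR1, the estrogen receptor alpha, rose by 0.46 ± 0.07 (adjusted p = 0.0295) against the negative control and by 0.45 ± 0.07 (adjusted p = 0.0406) against mock. The ESR1 call against mock was nearer to the threshold than that of TNRC6A (adjusted p = 0.0359). The other 7 did not pass. Among these XBP1, a transcription factor of secretory cells, differed from the negative control by 0.38 ± 0.08 (limma adjusted p = 0.0793) and from mock by 0.31 ± 0.08 (adjusted p = 0.200). Against mock FOXA1 differed by 0.14 ± 0.08, and KRT8 (0.02), KRT18 (-0.07), KRT19 (-0.06), EPCAM (-0.05) and GATA3 (0.02) lay near 0. The median of the 9 against mock was 0.02, with 6 positive and 3 negative. Their mean log2 intensity lay between 9.93 and 10.01 in the mimic arrays, between 9.76 and 9.81 in the negative control arrays and between 9.78 and 9.84 in the mock arrays. The part of these genes in the result for TNRC6A was not tested. None of the 7 named markers of other cell types passed in any comparison. The mean of the 2 named endothelial markers lay between 3.22 and 3.56 in mimic arrays, between 3.09 and 3.16 in negative control arrays and between 2.96 and 3.21 in mock arrays, with PECAM1 0.59 ± 0.17 above mock (SE, limma adjusted p = 0.232). The mean of the 2 basal markers, KRT5 and KRT14, lay between 3.48 and 3.61 in mimic, 3.59 and 3.65 in negative control and 3.53 and 3.74 in mock arrays. The mean of the 2 fibroblast markers, DCN and VIM, lay between 3.74 and 3.76 in mimic, 3.47 and 3.83 in negative control and 3.68 and 4.02 in mock arrays. The single leukocyte marker, LYZ, lay between 3.23 and 3.31 in mimic, 3.00 and 3.22 in negative control and 3.06 and 3.16 in mock arrays.

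The genes whose pattern over the 9 arrays was most like that of TNRC6A were found by the root mean square difference of mean-centred log2 values, among 6866 protein-coding genes above the median intensity. By this measure, on which TNRC6A itself has a spread of 0.193, the 5 nearest were ARHGEF38 (0.0548), RSPRY1 (0.0613), ESR1 (0.0620), CALCOCO1 (0.0670) and SIAH2 (0.0681). All 5 stood above their own mean in each mimic array and below it in each of the 6 control arrays, as TNRC6A did. Against mock they differed by 0.36 for ARHGEF38, 0.46 for RSPRY1, 0.45 for ESR1, 0.41 for CALCOCO1 and 0.35 for SIAH2. The choice by likeness fixes these differences, and the genes share arrays and normalization with TNRC6A, so the values are a description with no test.

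**Figure D4:**
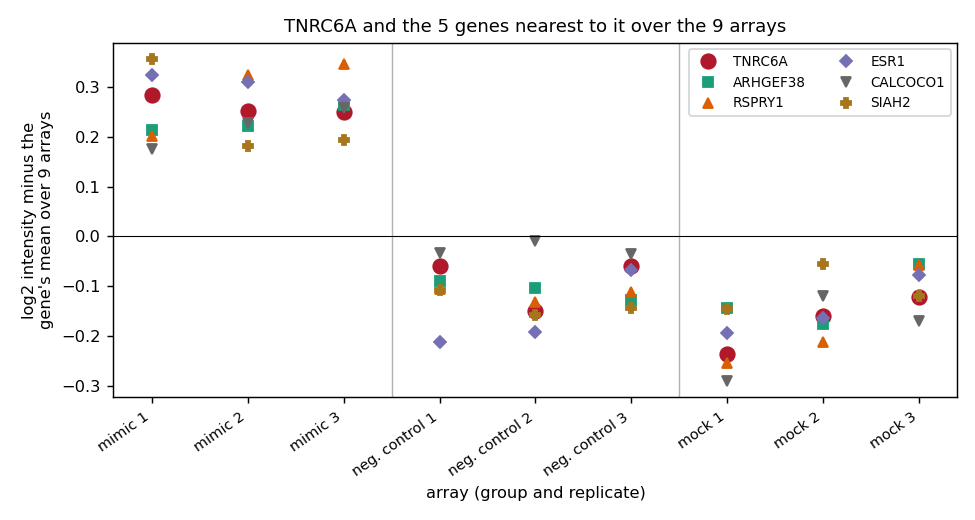
Log2 intensity minus the gene's own mean over 9 arrays for TNRC6A (large circles) and the 5 genes nearest to it, by array, with mimic at the left, negative control in the middle and mock at the right. Each point is 1 gene on 1 array. TNRC6A lies between 0.25 and 0.29 above its mean in the mimic arrays and below its mean in all 6 control arrays.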

How the data were processed

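The authors deposited 1 table of log2 intensities, 1 value for each of 53617 probesets on each of 9 arrays. Per the submitters' processing notes they were made with RMA, which corrects background, equalises arrays and summarises probes. RMA's version and the genome build were not given in the sources used here. Probe summarising can give equal values on several arrays: in the negative control, 16.4% of genes have such a tie, TNRC6A and LIMD1 among them, which narrows the spread.

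Probesets were named through the platform's gene table (16098 with 1 gene symbol). The probeset with the highest mean over 9 arrays stood for a gene, which left 14884 genes. The deposited log2 values were fitted in R 4.3.3 with limma 3.58.1 (lmFit, eBayes), 1 mean per group over 9 arrays with 6 residual degrees of freedom, and p-values were Benjamini-Hochberg adjusted over all genes, with a threshold of 0.05. Errors of differences are limma's moderated SE. The fit was run on simulated data with planted changes larger than those of the members, so this check does not cover differences of their size. The number of arrays limits the precision.

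Members and lists were chosen with earlier results of these data known. Named are all measured members, from each pathway list the genes that passed or else the 2 with the lowest p against mock, and the 5 genes nearest to TNRC6A. Alternatives covered the replicate block, the arrays fitted, scaling, dim genes, probeset choice, the variance prior and each array left out. Sequences are RefSeq's. The mature sequence of miR-150-5p was not used here.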

Additional observations from a re-analysis of the deposited data

How the results depend on the processing

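Counts of called genes moved with the settings. For mimic against negative control, 82 genes passed in the reported fit, 16 with the replicate block, 8 in a fit of these groups' arrays alone, 263 among genes above the median intensity, 6 when every probeset was tested, 181 with an intensity trend, and 7 to 121 with 1 array left out. The number of members passing was 0 in the reported fit, 1 (TNRC6A) above the median intensity and with the trend, and 0 to 1 with 1 array left out. For mimic against mock, the counts were 45, then 3 with the replicate block, 1 in the groups' arrays alone, 102 above the median intensity, 3 with every probeset, 78 with the trend, and 1 to 10 with 1 array left out. The member called there, TNRC6A, was lost (0 members) with the replicate block, the groups' arrays alone, quantile normalization, every probeset, and 1 array left out (0 to 0). For any RNA against mock, 1 gene passed when every probeset was tested and 0 otherwise. Negative control against mock gave 0 genes in all 18 alternatives.

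Signs turned for XPO5 against the negative control (-0.095 to 0.00635 with 1 array left out), TNRC6B against mock (-0.0196 after quantile normalization, -0.0539 to 0.11 with 1 array left out), TNRC6B for any RNA (-0.00677 to 0.157) and TNRC6A minus TNRC6C for any RNA (-0.0128 to 0.0559). With the mimic set against both controls and 1 array left out, TNRC6A minus TNRC6B ranged from 0.41 to 0.45, TNRC6A minus TNRC6C from 0.0835 to 0.166 and TNRC6B minus TNRC6C from -0.35 to -0.26. Rescaling moved the median of all genes by at most 0.03. Same-numbered arrays of different groups had deviations that correlated between -0.06 and 0.13, with a median of 0.06. For differently numbered arrays the range was -0.18 to 0.16, with a median of -0.04. These ranges overlap, and the numbers were not taken as pairs in the reported fit. With the replicate block the limma adjusted p of TNRC6A against mock was 0.106. The cause of each lost call was not tested. Some of the settings also bring fewer arrays or more features.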
